A study of Bos indicus with 5 samples.

Results

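The glycosaminoglycan genes described here are those that build, modify, carry, bind or degrade heparan sulfate, chondroitin sulfate and hyaluronan, together with HPSE, which encodes heparanase, the endoglycosidase that cuts heparan sulfate chains. They were taken by symbol from the table of ampulla genes: HPSE, CHPF, GLCE, CD44, the matrix proteins VCAN, DCN, BGN and LUM, and the genes of the GPC, SDC, B3GAT, XYLT, EXT and EXTL, HS3ST, HS6ST, NDST, SULF, CHSY, CHST, HAS and HYAL families. This gave 62 entries of 24616 genes, with 61 different symbols because HS6ST3 has 2 entries. Of these, 51 had a mean of more than 5 normalised reads and were tested, and 11 did not. Another 10 symbols of the same families were not matched in the table and were not analysed here, namely HPSE2, HS2ST1, HS3ST3A1, HS3ST4, HS6ST2, CHSY1, CHPF2, CHST5, CHST6 and HYAL3.

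The tissue was the ampulla, the upper oviduct segment in which fertilization takes place, from healthy multiparous Nelore (Bos indicus) cows on day 4 after the induction of ovulation, taken on the side of the corpus luteum (CL). LF/LCL cows (large follicle and large CL, n = 2) had the intravaginal progesterone device withdrawn 42 h before the GnRH injection and received an extra prostaglandin dose when the device was inserted, whereas SF/SCL cows (small follicle and small CL, n = 3) had it withdrawn 30 h before GnRH. Cows of both groups received the progesterone device with estradiol benzoate at its insertion, prostaglandin at its withdrawal and again some hours later, and the GnRH agonist buserelin, so neither group was an untreated control. Each library came from a different cow, the cows sequenced had been picked for their follicle, CL and hormone values as the extremes of each group, and another LF/LCL library had been discarded for low quality. Ages were not given in the sources used here.

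A glycosaminoglycan is a long unbranched sugar chain. Heparan and chondroitin sulfate are started on a serine of a core protein by a xylose-led linker, lengthened by polymerases in the Golgi, and then sulfated and epimerised, whereas hyaluronan is made without a core protein or sulfate by synthases of the plasma membrane. The sulfation pattern decides which growth factors, chemokines and enzymes a heparan sulfate chain binds. In the oviduct, heparin-like glycosaminoglycans of the luminal fluid are known for promoting sperm capacitation, and hyaluronan is the main glycosaminoglycan of the expanded cumulus around the egg.

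Libraries held between 13418278 and 19592174 reads assigned to genes. Values are normalised read counts, that is, reads divided by a size factor of the library. Marker genes of the oviduct were present in every library: OVGP1, the oviductal glycoprotein of secretory cells, had 117179 to 147247 normalised reads and FOXJ1, the regulator of motile cilia, 8481 to 12698. Cell type markers differed between the groups. The summed level of 17 ciliated cell markers was 47158 and 55632 in LF/LCL against 69056, 74933 and 69523 in SF/SCL, and 13 of the 16 tested had an unadjusted p under 0.05, all higher in SF/SCL. The summed level of 11 smooth muscle markers was 124145 and 64390 in LF/LCL against 39710, 42957 and 16290 in SF/SCL, and 9 of 11 had an unadjusted p under 0.05, all higher in LF/LCL. Of 12 proliferation markers 4 had an unadjusted p under 0.05, all higher in LF/LCL, and of 9 secretory and epithelial markers 4 did, 3 of them higher in LF/LCL. Of all genes, 5.64% were higher in LF/LCL at this p and 5.86% were higher in SF/SCL. All 12 stromal fibroblast markers were higher in LF/LCL, with a median log2 fold change of 0.81, but 0 had an unadjusted p under 0.05 by limma. In bulk tissue, fewer cells of a type and less RNA per cell cannot be told apart, and the part of these shifts in the differences described below was not tested.

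The comparison of LF/LCL with SF/SCL asked whether the preovulatory follicle size and the hormones that follow it go with a different abundance of these transcripts. HPSE had the lowest p of the list, with 3.25-fold fewer normalised reads in LF/LCL. By limma on log2(value + 1), 0 of the 51 genes tested had a Benjamini-Hochberg adjusted p under 0.05, beside 0 (0.0%) of all 15815 genes, and edgeR called 0 as well. DESeq2 on the recovered reads called 1 of 51, HPSE, beside 2.91% of all genes. At an unadjusted p under 0.05, limma counted 10 of 51 (19.6%, with 11.5% of all genes), edgeR 9 (11.6% of all genes) and DESeq2 9 (12.7% of all genes).

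Of these 10 genes, 4 were higher in LF/LCL (GPC1, EXT2, CD44 and HAS3; 7.84%, with 5.64% of all genes) and 6 were higher in SF/SCL (HPSE, GPC5, SDC4, HS3ST1, HS3ST5 and CHST1; 11.8%, with 5.86% of all genes). The count rested in part on LF/LCL replicate 1: without it 4 genes had an unadjusted p under 0.05, which was 7.84% of the 51, the same share as over all genes in that fit (7.84%), and 0 of the 4 were higher in LF/LCL. Without SF/SCL replicate 2 the count was 6 (11.8%, with 10.5% of all genes), of which 2 were higher in LF/LCL. Without LF/LCL replicate 2 the count was 7 of 52 (13.5%, with 9.89% of all genes), with 3 on the SF/SCL side. For the whole list, the median log2 fold change (LF/LCL minus SF/SCL) was 0.033, beside 0.0054 over all genes, with 27 above 0 and 24 below.

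**Figure D1:**
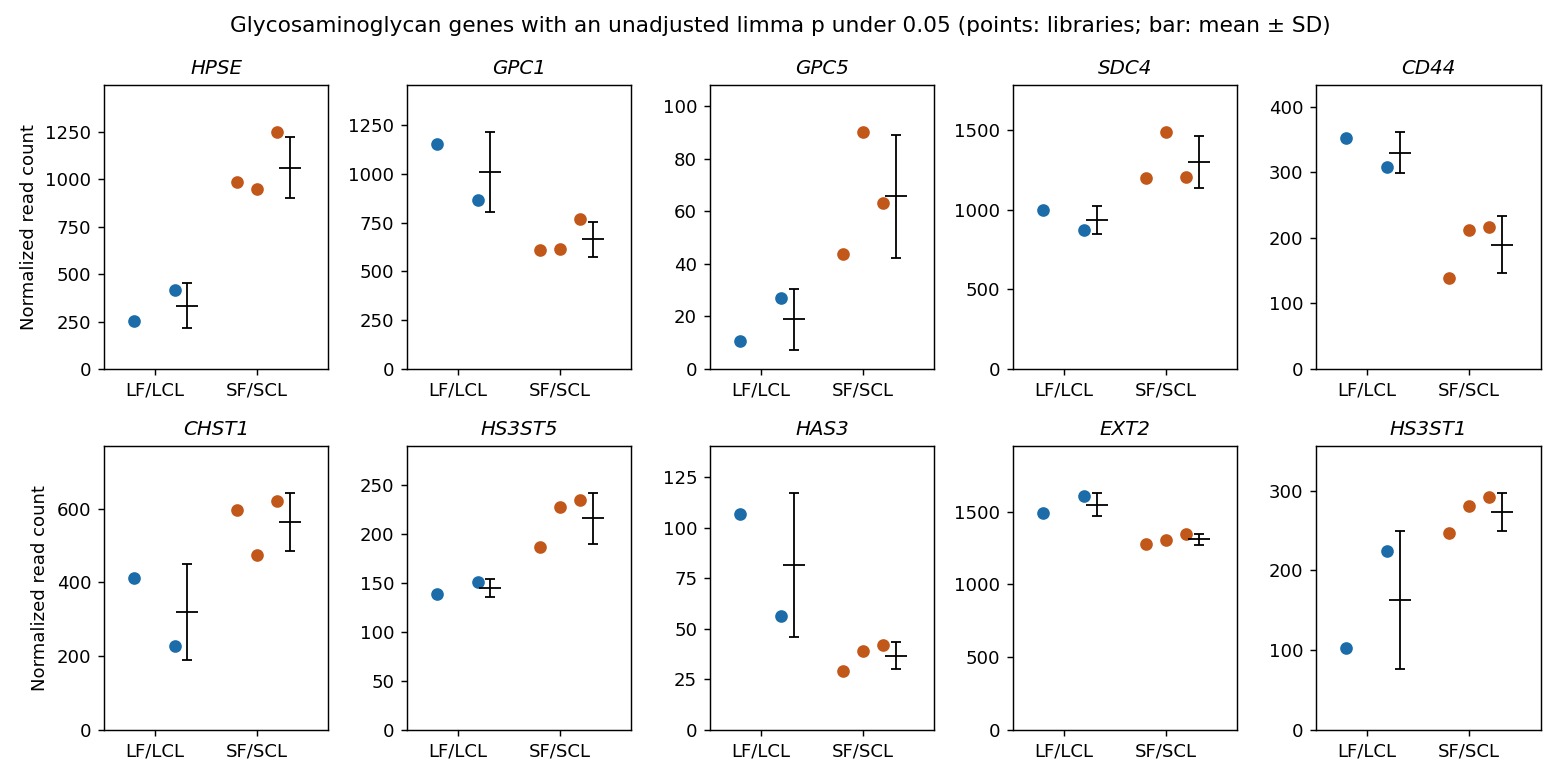
Normalised reads (linear axes from 0) of the 10 glycosaminoglycan genes with an unadjusted limma p under 0.05, 1 panel per gene; each point is 1 library, with the 2 LF/LCL and the 3 SF/SCL cows side by side, and the bars beside the points are the group mean ± SD. The groups do not overlap in any of the 10 panels, which adds no support, since the genes were chosen by p from these same values. Of all genes tested, 30.1% did not overlap. HPSE runs from 252 and 417 in LF/LCL to between 951 and 1249 in SF/SCL.

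HPSE (ENSBTAG00000005745) was at 252 and 417 normalised reads in the LF/LCL libraries, and at 988, 951 and 1249 in the SF/SCL libraries, from 215, 431, 950, 1224 and 1164 reads. Both LF/LCL cows were below all 3 SF/SCL cows, and LF/LCL replicate 1 was the lowest of all. The means were 335 ± 117 (SD, n = 2) and 1063 ± 163 (SD, n = 3), and the log2 fold change was -1.70 ± 0.24 (SE; 95% confidence interval -2.29 to -1.11; adjusted p = 0.178 by limma). The adjusted p was 0.207 by edgeR and 1.34e-06 by DESeq2, so the call rested on the choice of test. With each library left out in turn, the log2 fold change lay between -2.06 and -1.34, and the unadjusted p was at most 0.00181.

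The core proteins of the cell surface are the glypicans (GPC), held by a lipid anchor, and the syndecans (SDC), which span the membrane. The table held 10, of which 9 were tested. Of these, 3 (33.3%, with 11.5% of all genes) had an unadjusted p under 0.05. They were GPC1 towards LF/LCL and GPC5 and SDC4 towards SF/SCL. The 9 had a median log2 fold change of -0.28.

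GPC1 (ENSBTAG00000015996) had 1154 and 866 normalised reads in LF/LCL against 611, 612 and 769 in SF/SCL. There was no overlap, and LF/LCL replicate 1 stood above the other 4 libraries. The log2 fold change was 0.60 ± 0.18 (SE; adjusted p = 0.330 by limma), and 0.39 without that library. GPC5 had few reads, with 10.6 and 27.1 in LF/LCL against 43.7, 90.2 and 63.3 in SF/SCL. Again the groups did not overlap, and the lowest library was LF/LCL replicate 1. The log2 fold change of GPC5 was -1.83 ± 0.54 (adjusted p = 0.330), and -1.19 without LF/LCL replicate 1. SDC4 had 998 and 874 normalised reads in LF/LCL against 1197, 1485 and 1207 in SF/SCL, with no overlap and a log2 fold change of -0.47 ± 0.14 (adjusted p = 0.331). With a library left out, the log2 fold change of SDC4 lay between -0.56 and -0.36.

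The other cell surface core proteins did not have an unadjusted p under 0.05. GPC4 was 171 and 196 in LF/LCL against 217, 253 and 281 in SF/SCL, and SDC3 was 284 and 250 against 233, 163 and 193, both without overlap between groups, with log2 fold changes of -0.44 and 0.45. GPC2, with 7.28 to 13.6 normalised reads, was also without overlap (log2 fold change 0.64). SDC1 (308.8 to 563), SDC2 (197 to 678) and GPC3 (69.2 to 288) overlapped between groups. For SDC1, the log2 fold change was 0.20, for SDC2 -0.58 and for GPC3 -0.28.

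The matrix core proteins were decorin (DCN), biglycan (BGN) and lumican (LUM), small leucine-rich proteoglycans that bind collagen, and versican (VCAN), a large chondroitin sulfate proteoglycan that binds hyaluronan. None of these 4 had an unadjusted p under 0.05, and cows of the same group differed widely. DCN had 24967 and 8142 normalised reads in LF/LCL against 12835, 8407 and 16212 in SF/SCL. LUM had 2353 and 423 in LF/LCL against 1199, 637 and 2549 in SF/SCL. VCAN had 481 and 163 in LF/LCL against 204, 146 and 334 in SF/SCL. In all 3 genes LF/LCL replicate 1 exceeded replicate 2 and SF/SCL replicate 3 exceeded replicate 2, and the groups overlapped. The LF/LCL replicate 1 to 2 ratio was 3.07 for DCN, 5.56 for LUM and 2.96 for VCAN. BGN was different, at 1338 and 1442 in LF/LCL against 1358, 448 and 1137 in SF/SCL, where SF/SCL replicate 2 was low and the other 4 were close together. The log2 fold changes were 0.24 for DCN, -0.32 for LUM, 0.38 for VCAN and 0.65 for BGN.

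**Figure D2:**
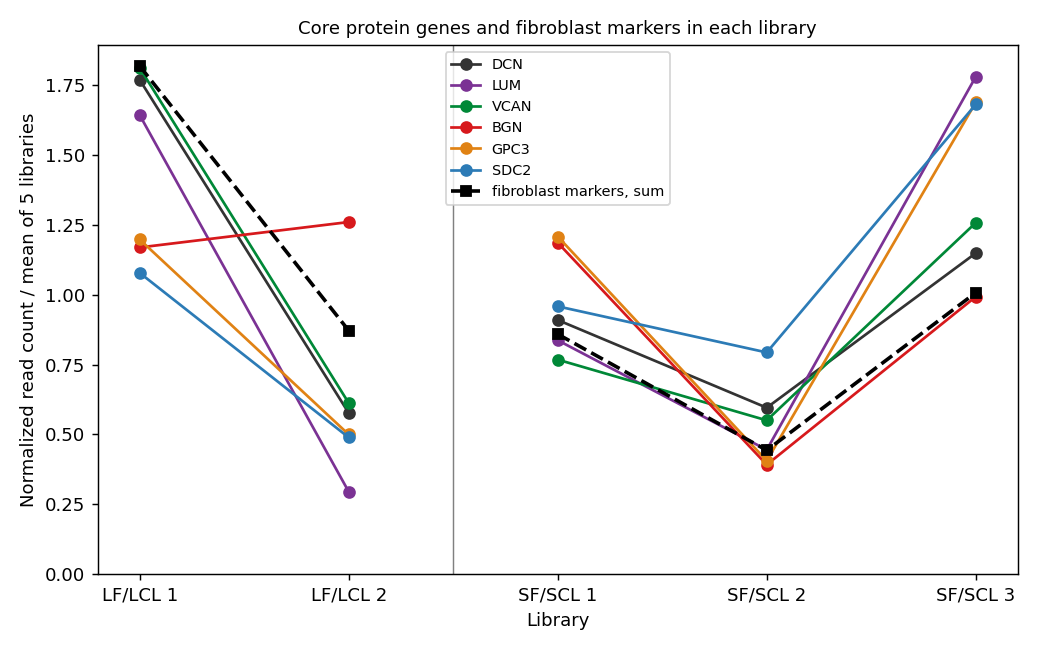
Normalised reads of DCN, LUM, VCAN, BGN, GPC3 and SDC2, and the summed level of the fibroblast markers (dashed), in each of the 5 libraries (x axis), each divided by its own mean over the libraries (y axis); lines join libraries of a group only to guide the eye. LUM runs from 2353 to 423 within LF/LCL and from 637 to 2549 within SF/SCL, and BGN, at 1338 and 1442 in LF/LCL, is close between the LF/LCL libraries.

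Spread within both groups was counted over the list, without a test. The highest library exceeded the lowest by more than 2-fold within both groups in 10 of 51 genes (19.6%), beside 7.64% of all genes tested. These were GPC3, GPC5, SDC2, LUM, VCAN, B3GAT1, EXTL1, CHST13, CHST15 and CHST3. In GPC3, SDC2, LUM, VCAN, EXTL1 and CHST15 (6 of 51, 11.8%, beside 1.44% of all genes), LF/LCL replicate 1 was more than 2-fold above replicate 2 and SF/SCL replicate 3 more than 2-fold above replicate 2, a pattern picked after the values had been seen. The summed level of 12 stromal fibroblast markers was 62340 and 29884 in LF/LCL against 29447, 15202 and 34530 in SF/SCL, with its high and low libraries in the same places within each group. Its part in the spread was not tested.

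Synthesis begins with the xylosyltransferases XYLT1 and XYLT2, which place xylose on the core protein, and B3GAT3 adds the glucuronic acid that completes the linker. All 5 genes of this step were tested and 0 had an unadjusted p under 0.05 by limma, or an adjusted p under 0.05 by limma, edgeR or DESeq2. B3GAT3 was nearly level, at 1039 and 1149.9 in LF/LCL against 1001, 1048 and 1065 in SF/SCL (log2 fold change 0.08). XYLT2 was 787 and 742 against 733, 735 and 593, without overlap but with a log2 fold change of 0.16. XYLT1 lay between 65.7 and 119.6 (log2 fold change -0.27). B3GAT1 and B3GAT2, whose known product is the HNK-1 sugar epitope, varied within groups: B3GAT2 was 184 and 201 in LF/LCL against 279, 127 and 39.7 in SF/SCL, and B3GAT1 had 2.35 to 12.5 normalised reads.

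EXT1 and EXT2 form the polymerase that lengthens heparan sulfate, and EXTL3 adds the first residue that commits a chain to heparan sulfate. EXT2 had 1491 and 1604 normalised reads in LF/LCL against 1275, 1304 and 1345 in SF/SCL. The libraries did not overlap, and the difference was small, with a log2 fold change of 0.24 ± 0.10 (adjusted p = 0.422 by limma). Its unadjusted p by limma was not under 0.05 whichever SF/SCL library was left out. The same held with no filter on the mean, and with neither trend nor robust moderation. With a library left out, the log2 fold change of EXT2 lay between 0.19 and 0.29. Its partner EXT1 was 2403 and 3098 in LF/LCL against 2243, 3938 and 3784 in SF/SCL, overlapping, with a log2 fold change of -0.24. EXTL3 (977 to 1303), EXTL2 (107 to 211) and EXTL1 (8.71 to 44.0) also overlapped, with log2 fold changes of 0.04, -0.33 and -0.84.

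Chain modification starts with the N-deacetylase/N-sulfotransferases (NDST), proceeds through the epimerase GLCE, and ends with 6-O and 3-O sulfation by the HS6ST and HS3ST enzymes. Of 13 entries 7 were tested, and 2 (28.6%, with 11.5% of all genes) had an unadjusted p under 0.05 by limma. These were HS3ST1 and HS3ST5, both 3-O-sulfotransferases known to make antithrombin-binding sites. By edgeR and by DESeq2 HS3ST1 did not reach this threshold, with unadjusted p of 0.0764 and 0.0539. HS3ST1 had 102 and 225 normalised reads in LF/LCL against 246, 281 and 292 in SF/SCL. LF/LCL replicate 1 was far below the rest, and replicate 2 was just under the lowest SF/SCL cow. The log2 fold change of -0.84 ± 0.34 (adjusted p = 0.427) was -0.28 without LF/LCL replicate 1 and -1.41 without LF/LCL replicate 2. HS3ST5 had 138 and 151 in LF/LCL against 186, 227 and 234 in SF/SCL, without overlap, and its log2 fold change was -0.57 ± 0.20 (adjusted p = 0.378). With a library left out, the log2 fold change of HS3ST5 lay between -0.67 and -0.50. Among the fits that kept both LF/LCL cows, its unadjusted p by limma stayed under 0.05 only without SF/SCL replicate 1. The log2 fold change was -0.50 without LF/LCL replicate 1 and -0.63 without LF/LCL replicate 2, each with the other LF/LCL cow alone. HS3ST3B1, with 9.38 to 15.0 normalised reads, was higher in every SF/SCL library, with a log2 fold change of -0.44 and an unadjusted p of 0.402.

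The enzymes of earlier modification steps were close between groups. NDST1 was 766 and 653 in LF/LCL against 746, 667 and 712 in SF/SCL, and NDST2 was 748 and 647 against 776, 658 and 790. Their log2 fold changes were -0.0003 (95% interval -0.31 to 0.31) and -0.09 (95% interval -0.42 to 0.25). GLCE was 2566 and 2303 against 3068, 3245 and 2179 (log2 fold change -0.20), and HS6ST1 was 569 and 806 against 783, 553 and 615 (0.07). The sulfatases SULF1 and SULF2, which trim 6-O-sulfate from finished chains outside the cell, overlapped between groups as well. SULF1 had 240.4 and 111 in LF/LCL against 147, 77.7 and 121 in SF/SCL, and SULF2 had 5157 and 6030 against 3820, 8108 and 5232. Their log2 fold changes were 0.55 and 0.03.

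**Figure D3:**
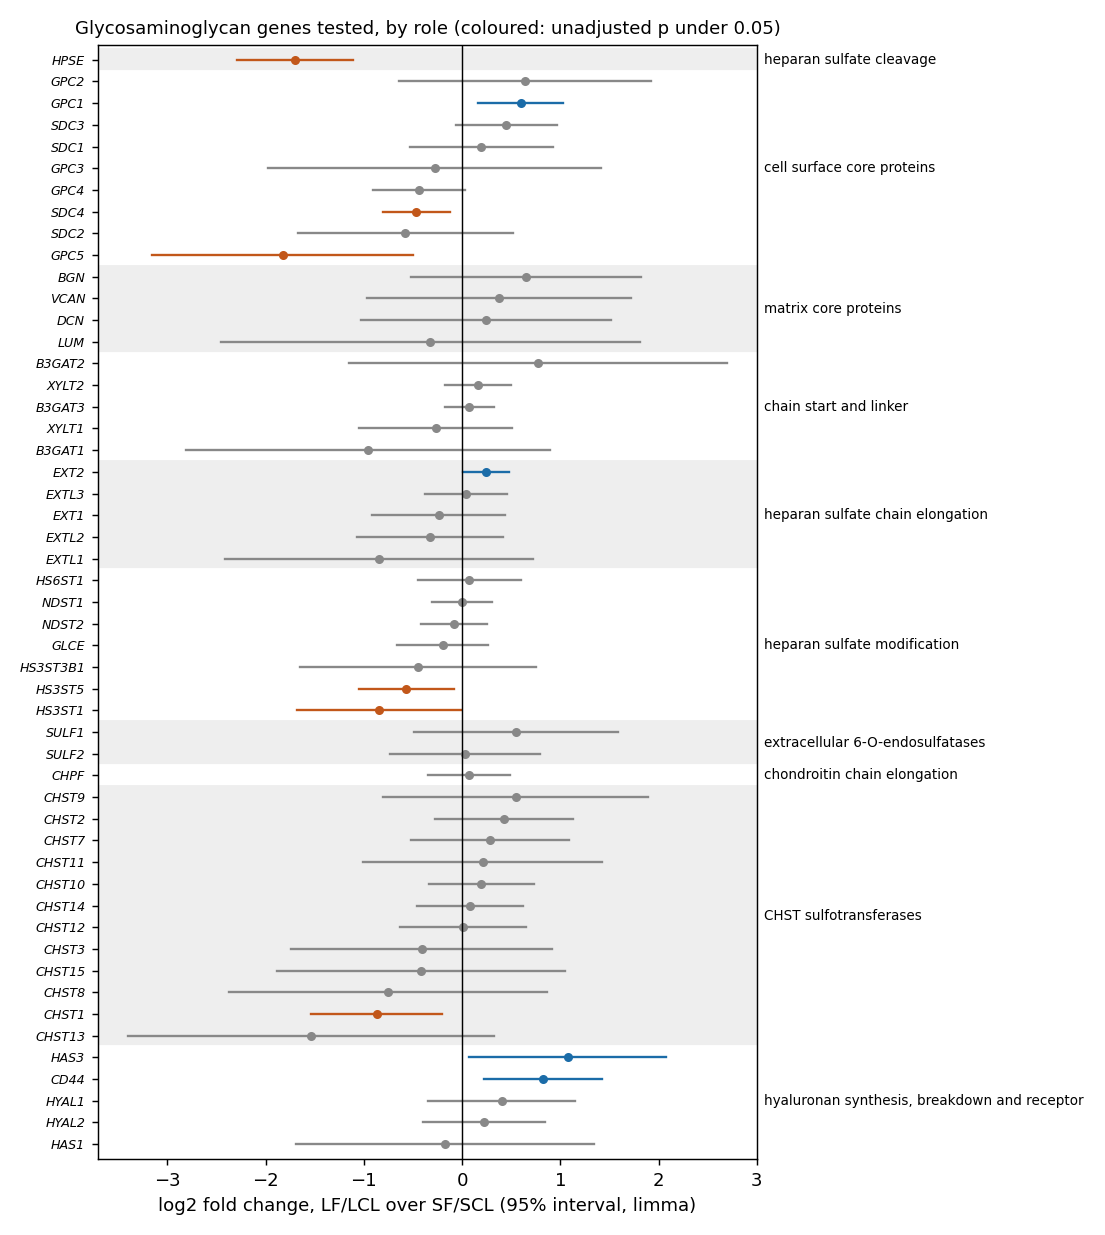
Log2 fold change (LF/LCL minus SF/SCL, limma on log2(value + 1)) of the 51 glycosaminoglycan genes tested, grouped by role; points are estimates, bars are 95% confidence intervals, and colour marks the 10 genes with an unadjusted p under 0.05 (blue, higher in LF/LCL; orange, higher in SF/SCL). The interval of HPSE, at -1.70, does not reach -1, and 19 of the 51 intervals lie wholly within 1 log2 unit of 0.

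CHPF, a subunit of the chondroitin polymerase, had 1713 and 1705 normalised reads in LF/LCL against 1705, 1315 and 1923 in SF/SCL (log2 fold change 0.07). Of 12 CHST sulfotransferases tested, 1 (8.33%, with 11.5% of all genes) had an unadjusted p under 0.05. This was CHST1, which sulfates the galactose of keratan sulfate, with 412 and 227 in LF/LCL against 597, 475 and 620.3 in SF/SCL. Both LF/LCL libraries were below the SF/SCL range, and LF/LCL replicate 2 was the lowest. The log2 fold change was -0.87 ± 0.27 (adjusted p = 0.353 by limma), and -0.44 without LF/LCL replicate 2.

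The chondroitin and dermatan 4-O-sulfotransferases CHST11 (16.3 to 37.7), CHST12 (83.2 to 103) and CHST14 (227 to 327) overlapped between groups, with log2 fold changes of 0.21, 0.01 and 0.08. CHST13, of the same activity, had 1.17 and 3.87 normalised reads in LF/LCL against 8.32, 13.2 and 5.37 in SF/SCL, without overlap but with an unadjusted p of 0.0906 at this depth. The chondroitin 6-O-sulfotransferase CHST3 varied within both groups, at 216 and 549 in LF/LCL against 759, 441 and 288 in SF/SCL. CHST7, of the same activity, overlapped between groups, as did CHST15, which adds a sulfate to already 4-O-sulfated units and had 35.8 to 135. The log2 fold changes were -0.41 for CHST3, 0.29 for CHST7 and -0.42 for CHST15. CHST2, CHST8, CHST9 and CHST10, which act mainly on other glycans, had log2 fold changes of 0.43, -0.75, 0.55 and 0.20, none with an unadjusted p under 0.05.

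The hyaluronan genes had 2 of 5 tested with an unadjusted p under 0.05, both higher in LF/LCL, where 5.64% of all genes were. CD44, the main cell surface receptor of hyaluronan, had 352 and 308 normalised reads in LF/LCL against 139, 212 and 217 in SF/SCL. Both LF/LCL libraries were above the SF/SCL range, and SF/SCL replicate 1 was the lowest. The log2 fold change was 0.82 ± 0.25 (adjusted p = 0.333). It was 0.73 without LF/LCL replicate 1, and lay between 0.62 and 0.93 with a library left out. HAS3, a hyaluronan synthase, had 107 and 56.1 in LF/LCL against 29.1, 38.9 and 41.9 in SF/SCL. LF/LCL replicate 1 was well above the other 4 libraries, and the log2 fold change of 1.08 ± 0.41 (adjusted p = 0.414) was 0.62 without it and 1.53 without LF/LCL replicate 2. CD44 is also carried by leukocytes. The summed level of 18 immune cell markers was 5884 and 7321 in LF/LCL against 5967, 3687 and 4652 in SF/SCL. Of 16 tested, 5 had an unadjusted p under 0.05, all higher in LF/LCL, where 5.64% of all genes were. The part of immune cell content in the CD44 values was not tested.

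The synthase HAS1 had 4.84 to 7.77 normalised reads (log2 fold change -0.17). The hyaluronidases HYAL1 and HYAL2 were not far apart between groups: HYAL1 was 88.0 and 91.0 in LF/LCL against 60.3, 58.3 and 86.9 in SF/SCL, and HYAL2 was 779.9 and 775 against 614, 517 and 939. The log2 fold changes were 0.40 and 0.22. HYAL1 did not overlap between groups, but its SF/SCL replicate 3 came within a few reads of the LF/LCL libraries.

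Counted over the whole list, 17 of 51 genes did not overlap between groups (33.3%, beside 30.1% of all genes tested), 8 with LF/LCL higher (15.0% of all genes did so) and 9 with SF/SCL higher (15.1% of all genes). These shares were near those of all genes. Leaving out a library makes separation easier, and the count was 34 of 51 (66.7%, with 56.9% of all genes) without LF/LCL replicate 1 and 29 of 52 (55.8%, with 57.1% of all genes) without LF/LCL replicate 2. For 19 of 51 genes the 95% confidence interval lay within 1 log2 unit of 0, so that a change of more than 2-fold was outside it. Of these, 17 had no unadjusted p under 0.05: GPC4, SDC1, SDC3, B3GAT3, XYLT2, EXT1, EXTL3, GLCE, HS6ST1, NDST1, NDST2, SULF2, CHPF, CHST10, CHST12, CHST14 and HYAL2. The interval of HPSE lay wholly beyond a 2-fold difference, and for the others a 2-fold difference was within the interval.

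**Figure D4:**
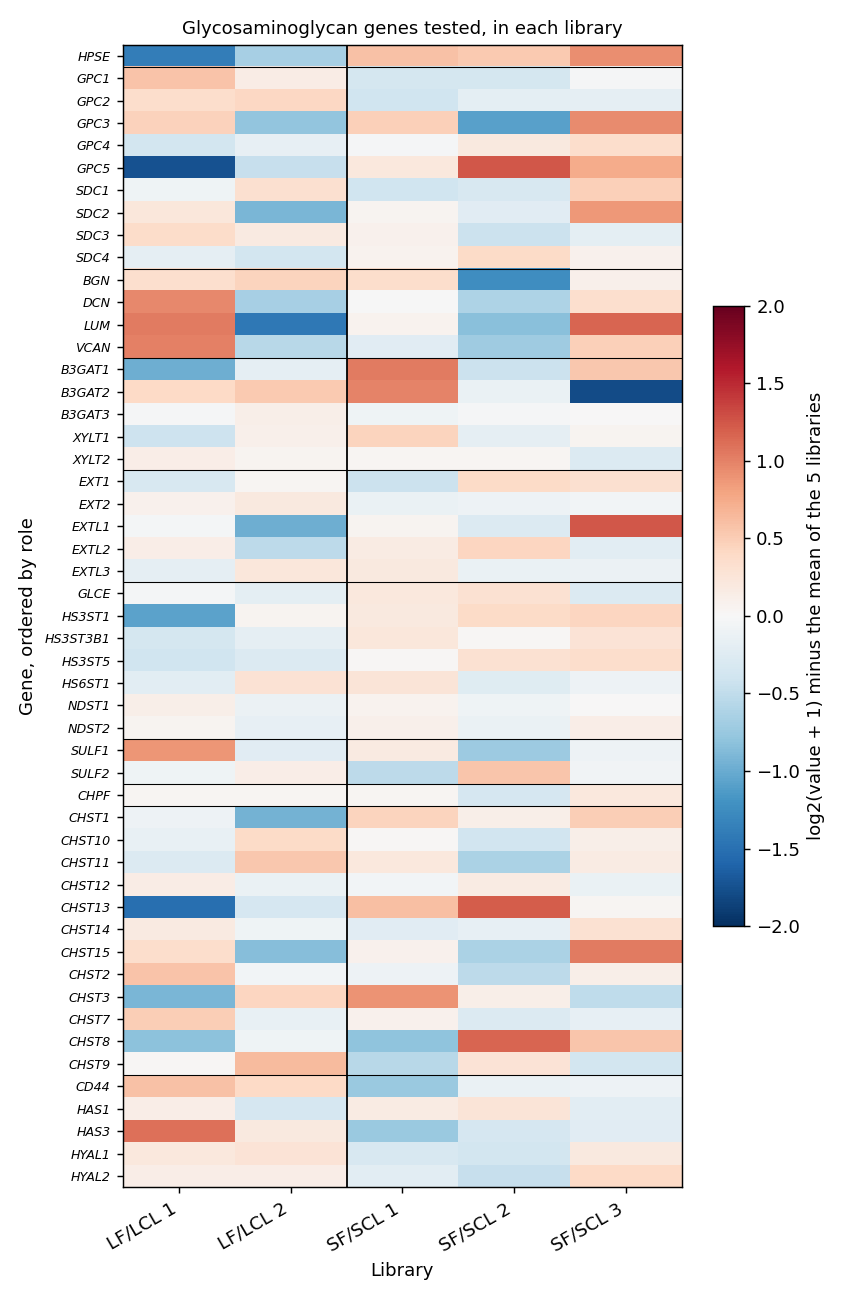
Heat map of the 51 genes tested (rows, by role) in the 5 libraries (columns); colour is the log2 of the normalised value + 1 minus the mean of the gene over the libraries, blue below and red above that mean. SF/SCL replicate 3 is the highest library in 16 genes and the lowest in 3, whereas SF/SCL replicate 2 is the lowest in 13.

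The 11 entries below the mean of 5 normalised reads were GPC6, HS3ST2, HS3ST6, the 2 entries of HS6ST3, NDST3, NDST4, CHSY3, CHST4, HAS2 and HYAL4. Their reads over all 5 libraries numbered 9 for GPC6, 1 for HS3ST2, 20 for HS3ST6, 21 and 1 for HS6ST3, 5 for NDST3, 6 for NDST4, 19 for CHSY3, 12 for CHST4, 8 for HAS2 and 7 for HYAL4. Of the 4 NDST genes, then, only NDST1 and NDST2 had enough reads to be compared, and of the 3 hyaluronan synthases HAS1 and HAS3. HS6ST3 was uneven, since the entry with 21 reads had 17.6 normalised reads in LF/LCL replicate 1 and at most 4.16 in the others.

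Other genes of the pathway, outside the families above, were counted from lists of precursor supply, linker, chondroitin and dermatan enzymes, lysosomal breakdown, further core proteins and hyaluronan binding. Of 71 symbols 65 were matched, 59 entries were tested and 0 had an adjusted p under 0.05 by limma or edgeR, while DESeq2 called 1, SPOCK1. At an unadjusted p under 0.05 limma counted 8 (13.6%, beside 11.5% of all genes) and edgeR 6 (11.6% of all genes). Of the 8, 7 were higher in LF/LCL, where 5.64% of all genes were, and 1 was higher in SF/SCL, where 5.86% were. The count was 5 without SF/SCL replicate 1 (10.1% of all genes) and 4 without SF/SCL replicate 3 (9.45% of all genes). The highest count with a library left out was 11, without SF/SCL replicate 2 (10.5% of all genes).

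**Figure D5:**
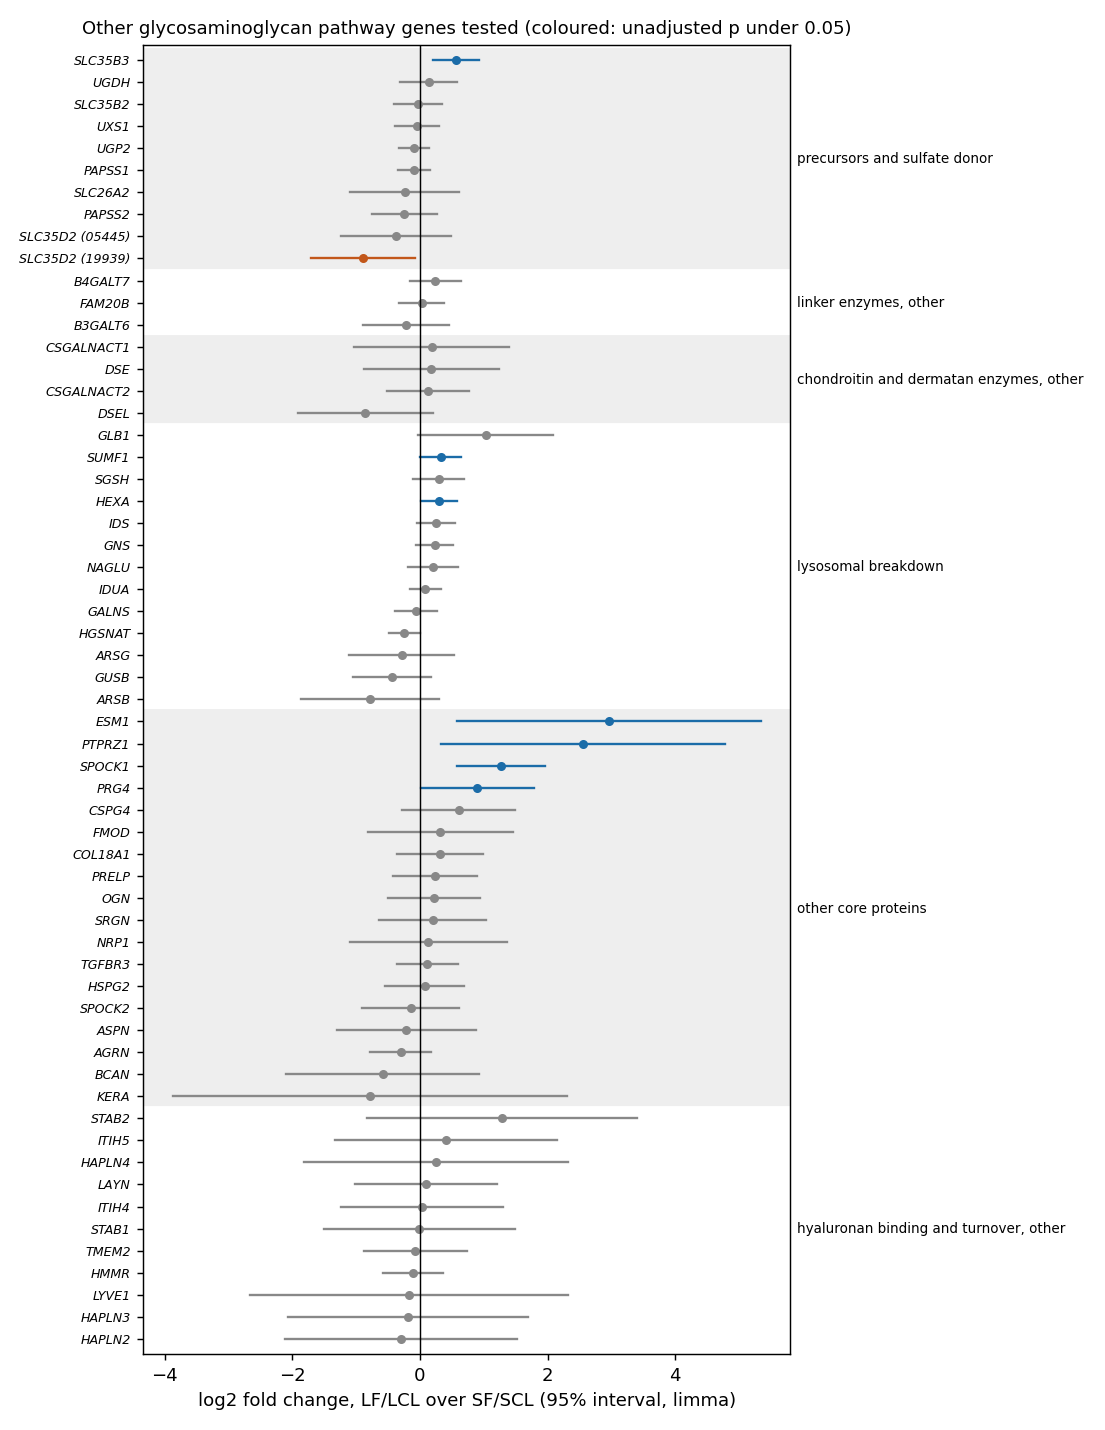
Log2 fold change (LF/LCL minus SF/SCL) with 95% confidence intervals of the 59 other glycosaminoglycan pathway genes tested, grouped by list; colour marks an unadjusted p under 0.05 (blue, higher in LF/LCL; orange, higher in SF/SCL). Of the 8 coloured points 7 lie right of 0, with ESM1 at 2.96 the farthest. The SLC35D2 entry ENSBTAG00000019939, at -0.89, lies left, and the other entry of that symbol is not coloured.

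Among the further core proteins 4 of 18 (22.2%, with 11.5% of all genes) had an unadjusted p under 0.05 by limma. All 4 were higher in LF/LCL, where 5.64% of all genes were. By edgeR 2 of them had an unadjusted p under 0.05, SPOCK1 and ESM1. SPOCK1 (testican-1) had 1163 and 728 normalised reads in LF/LCL against 507, 321 and 339 in SF/SCL, with a log2 fold change of 1.27 ± 0.28 (adjusted p = 0.253 by limma and 0.0049 by DESeq2). ESM1, the endothelial proteoglycan endocan, had 315 and 2312 against 239, 90.9 and 59.0. Its log2 fold change of 2.96 ± 0.96 (adjusted p = 0.362) was 4.40 without LF/LCL replicate 1 and 1.53 without LF/LCL replicate 2, so its size rested on the latter cow. The summed level of 8 endothelial markers was 7882 and 4925 in LF/LCL against 6463, 5983 and 8551 in SF/SCL. The part of endothelial content in the ESM1 values was not tested. PTPRZ1, a receptor phosphatase that carries chondroitin sulfate, had 606 and 557 against 313, 94.8 and 31.1 (log2 fold change 2.56 ± 0.90), with the SF/SCL cows far apart. PRG4 (lubricin) had a log2 fold change of 0.90 ± 0.36.

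Of 10 entries for precursors and the sulfate donor, SLC35B3, which carries the sulfate donor PAPS into the Golgi, had 444 and 441 in LF/LCL against 296, 333 and 272 in SF/SCL (log2 fold change 0.56 ± 0.15; adjusted p = 0.306). SLC35D2 (ENSBTAG00000019939, of 2 entries with that symbol), a nucleotide sugar transporter, had 35.2 and 38.7 against 81.1, 54.4 and 75.1 (log2 fold change -0.89 ± 0.34; adjusted p = 0.411). Of 13 lysosomal genes, 2 (15.4%, with 11.5% of all genes) had an unadjusted p under 0.05. These were HEXA, a subunit of beta-hexosaminidase, and SUMF1, the activator of the sulfatases, with log2 fold changes of 0.29 ± 0.12 and 0.32 ± 0.13. The median log2 fold change of the 13 was 0.20. In the lists of linker enzymes (3 tested), chondroitin and dermatan enzymes (4) and hyaluronan binding (11), 0 had an unadjusted p under 0.05 by limma or edgeR, and 0 were called by DESeq2 after adjustment.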

How the data were processed

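Ampulla RNA of 5 cows had been sequenced by the authors as poly(A) libraries, aligned with TopHat2 2.0.8 and Bowtie2 2.1.0 to the masked UMD 3.1 genome, and uniquely mapped reads were counted per gene with HTSeq 0.5.4p2; the strand setting was not given in the sources used here. The deposited values are a signal, read counts divided by the DESeq 1.12.1 size factors of the authors. Division by the value of 1 read returned whole reads for 100% of nonzero values in every library (tolerance 0.05).

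The test was limma 3.58.1 (R 4.3.3) on log2(value + 1), with trend and robust moderation, on 15815 genes with a mean over 5, two-sided, with Benjamini-Hochberg adjustment over all of them and a threshold of 0.05. Fold changes are on that scale, which understates those of low genes. edgeR 4.0.16 (quasi-likelihood) and DESeq2 1.42.0 were run on the recovered reads as alternatives. Another 11 settings were tried: 2 other pseudocounts, 2 other filters, TMM scaling, no moderation trend, and leaving out each library. The limma code was tested on simulated data.

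The genes and lists were chosen with earlier results of these data known. Values in every library are given for HPSE and for each gene with an unadjusted p under 0.05, and other pathway genes are named at the same p; a further criterion, the highest level per length in each role, could not be applied since no transcript lengths were used here, and for the same reason levels are not compared between genes. The matrix proteins and other genes shown by library were chosen after their values were seen. No sequences were used, and RefSeq positions served only to find which genes are neighbours among protein-coding genes.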

Additional observations from a re-analysis of the deposited data

How the results depend on the processing

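Across 13 alternatives, the 10 genes with an unadjusted p under 0.05 kept their direction, and the median log2 fold change of the 51 genes stayed between -0.056 and 0.038. With DESeq2, 1 gene had an adjusted p under 0.05 instead of 0, HPSE, at a log2 fold change of -1.66; the cause was not tested. By limma and edgeR, 0 did in any alternative, leaving out each library included (0 to 0). The log2 fold change of HPSE was -2.06 to -1.34 with a library left out. The number that reached an unadjusted p under 0.05 was 6 to 8 with an SF/SCL library left out (6 without SF/SCL replicate 2), where 9.45% to 10.5% of all genes did. It was lower without LF/LCL replicate 1, as given above. The number among the other pathway genes was 4 to 11 with an SF/SCL library left out, beside the same shares of all genes. With neither trend nor robust moderation that number was 5 (10.5% of all genes). The fits with fewer libraries have fewer samples. By limma, EXT2, HS3ST1 and HAS3 lost their unadjusted p under 0.05 whichever SF/SCL library was left out. CHST1 lost it without SF/SCL replicate 1 or 3, and HS3ST5 without SF/SCL replicate 2 or 3. HPSE, GPC1, GPC5, SDC4 and CD44 kept it in these fits. Without LF/LCL replicate 1 the log2 fold change was -0.56 for SDC4 and -1.30 for CHST1. Without LF/LCL replicate 2 it was -0.37 for SDC4 and -0.44 for CHST1. With LF/LCL replicate 1 or 2 left out, the remaining LF/LCL cow was assumed to vary like the SF/SCL cows. No paired analysis was possible because each library came from a different cow and the replicate numbers follow only the order of the samples. With 2 and 3 cows per group, the p-values set each group difference against a variance estimated from few cows and moderated over all genes tested. The cows were picked as the extremes of each group, so these p-values do not speak for cows in general. Differences under 2-fold were within the interval of many genes at this number of cows.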

Other observations

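In the RefSeq genes of the Bos indicus assembly NIAB-ARS_B.indTharparkar_mat_pri_1.0, 57 of the 61 symbols were matched. In the order of its protein-coding genes, 4 pairs are neighbours: GPC4 and GPC3, GPC5 and GPC6, HYAL2 and HYAL1, and LUM and DCN. Non-coding genes between them were not considered. The neighbours GPC4 and GPC3 had different values by library: GPC3 was 204 and 85.2 normalised reads in LF/LCL against 206, 69.2 and 288 in SF/SCL, whereas GPC4 was 171 and 196 against 217, 253 and 281. LUM and DCN had the same order of LF/LCL libraries and the same highest SF/SCL library, as given above. GPC6, with 9 reads in all, was at 0 and 0.968 in LF/LCL and at 2.08, 2.33 and 3.22 in SF/SCL, and could not be compared at this depth.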
